A study of Brachypodium distachyon with 20 samples.

Results

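STM, KNAT1 and CUC2 are names of the Arabidopsis regulators of the shoot apical meristem given here to homologous *Brachypodium distachyon* gene models, Bradi1g57607.1 (STM), Bradi1g10047.2 (KNAT1) and Bradi1g41712.2 (CUC2). The names are those used by the study. The paper paired genes of the species by best BLAST hit and states that their orthology is not simple. A name therefore does not make a model the established counterpart of that Arabidopsis gene. The 3 models were taken by their identifiers from the 23749 models of the expression table. All 3 were among the 22902 models that exceeded 0 log2 CPM in at least 2 libraries and were tested. CPM is a read count scaled to the total of its library, and a step of 1 on the log2 scale is a doubling or a halving.

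The libraries came from wild-type plants of the ecotype Bd21, a diploid grass accession used as a laboratory reference, and no treatment or mutant was involved beyond hand pollination to synchronise the grains. Each of the 10 groups held 2 libraries made from pools of dissected tissue. The 7 embryo groups ran in order of development through the 2-cell and quadrant (TCQ), pre-embryo (PEM), transition (TRA), leaf early (LEE), leaf middle (LEM), leaf late (LEL) and mature (MAT) stages. The 3 other groups were early endosperm (EEN), dissected when embryos were at TRA, and late endosperm (LEN) and seed coat (SEC), dissected when embryos were at LEL. The tissue labels were not checked against marker genes here. Seed coats were what was left of the grain once embryo and endosperm had been taken out by hand. As a library is a whole embryo or tissue, fewer cells of a type and less RNA per cell cannot be told apart. The p-values rest only on the spread between pools of the same group. In the fit of all libraries this spread was estimated for each gene over all 10 groups together, so it is not that of the 2 groups compared.

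STM and KNAT1 belong to the class I KNOTTED1-like homeobox (KNOX) family. In Arabidopsis and maize these transcription factors are active in the shoot meristem and are switched off where leaf primordia form, and they keep cells undifferentiated by raising cytokinin and lowering gibberellin. CUC2 is a NAC-domain transcription factor that in Arabidopsis marks the boundary between the cotyledons, restrains growth there and acts upstream of STM during embryogenesis. A grass embryo has a single cotyledon, the scutellum, and its shoot meristem forms on the flank of the embryo and makes leaves before the grain matures.

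Every member changed during embryo development. In an F-test over the 7 embryo stages the adjusted p was 2.2e-09 for STM, 2.3e-10 for KNAT1 and 2.3e-12 for CUC2 (limma, all 20 libraries in 1 fit, adjusted by the Benjamini-Hochberg method over all tested genes). This sets the members apart little, since 93.3% of all tested genes passed the same test. Over all 10 groups the 3 members passed again, as did 98.7% of tested genes. The timing of the changes differed between the members, and it is described gene by gene before the tissues are compared.

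**Figure D1:**
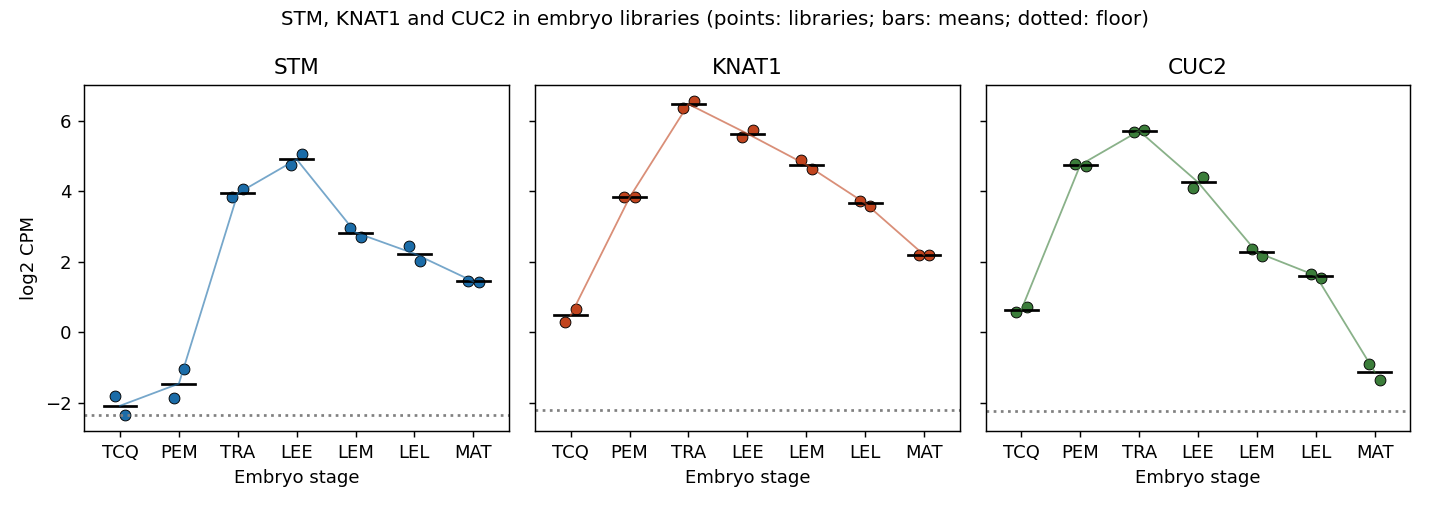
Log2 CPM (y axis) of STM, KNAT1 and CUC2 at the 7 embryo stages (x axis, early to late), with a point for each library, a bar for the mean of the 2 libraries of a stage and a dotted line at the lowest value the table gives the gene. STM stands near its lowest value at TCQ and PEM and is highest at LEE, whereas KNAT1 and CUC2 are already well above theirs at PEM and are highest at TRA.

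STM, the KNOX gene that in Arabidopsis is required to form the shoot meristem, was close to the lowest value of its own row in the first 2 stages. Its log2 CPM was −1.81 and −2.36 at TCQ and −1.87 and −1.05 at PEM. The value −2.36 is the floor of this gene, meaning the lowest value of its row and one that several libraries share exactly, so TCQ replicate 2 held no measurable STM. The PEM and TCQ libraries overlapped at the bottom of the range, and the difference PEM minus TCQ was 0.63 (95% interval −0.32 to 1.57, adjusted p = 0.25).

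At TRA the level of STM was 3.82 and 4.06 log2 CPM, far above both PEM libraries. The rise of 5.40 ± 0.44 (log2, SE) was 42.3-fold with an adjusted p of 5.7e-07, and it was the 9th largest rise of any of the 22902 tested genes at this step. On log2(CPM + 1), which shrinks changes of low levels, it was 3.57. The level was 4.75 and 5.06 log2 CPM at LEE, the highest stage of STM. Both LEE libraries lay above both TRA libraries, but the difference of 0.97 was not called in the fit of all libraries (95% interval 0.02 to 1.91, adjusted p = 0.14). In a fit of the 14 embryo libraries alone it was called with an adjusted p of 0.0348, so the call depends on which libraries estimate the spread.

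After LEE the values of STM were lower at each stage. Its log2 CPM was 2.95 and 2.70 at LEM, 2.45 and 2.01 at LEL and 1.45 and 1.43 at MAT, with no overlap between the libraries of neighbouring stages. The fall from LEE to LEM was the only one of these that passed the test in the fit of all libraries (log2 change −2.08 ± 0.44, SE, adjusted p = 0.0011). The change was −0.60 for LEL against LEM (adjusted p = 0.32) and −0.79 for MAT against LEL (adjusted p = 0.15). The last of these was called in the fit of the embryo libraries alone (adjusted p = 0.0398). At MAT the mean of 2.71 CPM was set against 30.1 CPM at LEE, and it was still above the start of development by 3.53 ± 0.44 (log2, SE, MAT minus TCQ, adjusted p = 2.4e-06). The size of this difference rests in part on the floor, since STM was at or near it at TCQ. On log2(CPM + 1) the difference was 1.58.

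KNAT1, named after the Arabidopsis KNOX gene also called BREVIPEDICELLUS that acts in the shoot meristem and stem, was measurable from the first stage sampled. It had 0.30 and 0.66 log2 CPM at TCQ and 3.83 and 3.82 at PEM. The rise of 3.34 ± 0.29 (log2, SE) at this step was called with an adjusted p of 2.9e-07. STM, the other KNOX gene, had not been called at this step. KNAT1 rose again to 6.37 and 6.57 log2 CPM at TRA, its highest stage, by 2.65 ± 0.29 (SE, adjusted p = 8.1e-06).

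From TRA on, KNAT1 fell at every step. It had 5.54 and 5.73 log2 CPM at LEE, 4.88 and 4.63 at LEM, 3.74 and 3.59 at LEL and 2.19 and 2.20 at MAT. No library of a later stage reached one of the stage before it. The change was −0.84 for LEE against TRA (adjusted p = 0.0479), −0.88 for LEM against LEE (adjusted p = 0.017), −1.09 for LEL against LEM (adjusted p = 0.0071) and −1.47 for MAT against LEL (adjusted p = 4.9e-04), each with an SE of 0.29. The first of these falls was not called once any one of its 4 libraries was left out (adjusted p 0.10 to 0.22). The call of LEM against LEE was lost without LEE replicate 2 (log2 change −0.78, adjusted p = 0.10) or LEM replicate 2 (−0.75, adjusted p = 0.11), and that of LEL against LEM without LEM replicate 1 (−0.96, adjusted p = 0.058). At MAT KNAT1 was at 5.14% of its TRA level in CPM, and 1.71 ± 0.29 (log2, SE) above TCQ (adjusted p = 4.8e-05).

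CUC2, the boundary gene, had a larger log2 rise at the first step than at the second, as KNAT1 did. Its log2 CPM was 0.58 and 0.71 at TCQ and 4.77 and 4.72 at PEM, a rise of 4.11 ± 0.23 (SE) with an adjusted p of 8.1e-09. It was the 28th largest rise of any of the 22902 tested genes at this step. At TRA, its highest stage, CUC2 had 5.69 and 5.73 log2 CPM, and the further rise was 0.96 ± 0.23 (SE, adjusted p = 0.0051). At PEM it had thus reached 51.2% of its highest mean CPM, compared with 15.9% for KNAT1 and 1.25% for STM.

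CUC2 then fell at each step down to the mature embryo. It had 4.10 and 4.41 log2 CPM at LEE, 2.36 and 2.17 at LEM, 1.66 and 1.55 at LEL and −0.90 and −1.35 at MAT. The log2 changes were −1.46 for LEE against TRA (adjusted p = 4.4e-04), −1.99 for LEM against LEE (adjusted p = 4.6e-06), −0.66 for LEL against LEM (adjusted p = 0.033) and −2.73 for MAT against LEL (adjusted p = 1.2e-07), each with an SE of 0.23. The smallest of these, LEL against LEM, was not called once any one of its 4 libraries was left out. At MAT the mean of 0.464 CPM was 0.884% of that at TRA. CUC2 was the only member that ended below its first level, by −1.77 ± 0.23 (log2, SE, MAT minus TCQ, adjusted p = 3.1e-06).

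**Figure D2:**
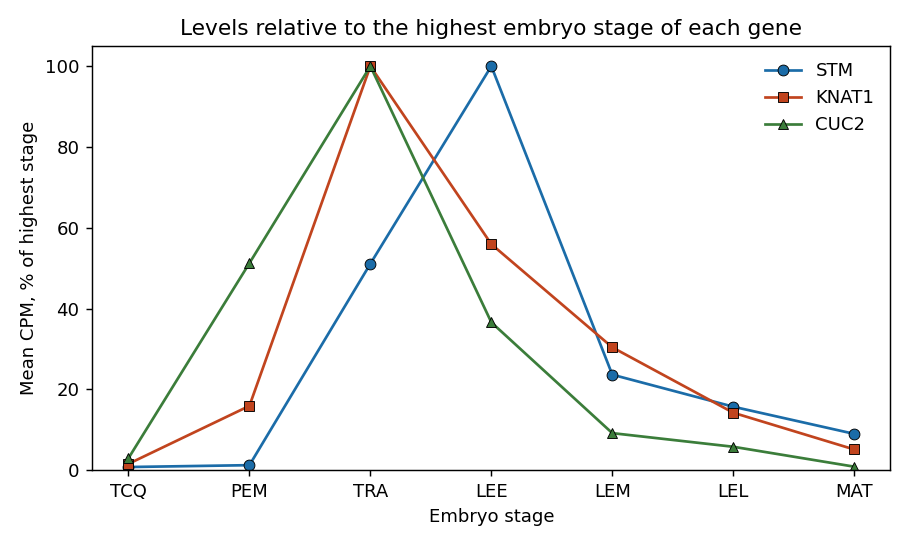
Mean CPM of the 2 libraries of each embryo stage (x axis) as a percentage of the mean at the gene's own highest stage (y axis), for STM, KNAT1 and CUC2. At PEM CUC2 is at 51.2%, KNAT1 at 15.9% and STM at 1.25% of the highest stage, and at LEE the order is turned round, with STM at 100%, KNAT1 at 55.9% and CUC2 at 36.6%.

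Counted over the 3 members, 2 were higher at PEM than at TCQ, where 28.7% of all tested genes were called higher and 24.6% lower. All 3 were higher at TRA than at PEM, where 13.4% of tested genes were called higher and 15.9% lower. At LEE against TRA 2 members were called lower, at LEM against LEE 3, at LEL against LEM 2 and at MAT against LEL 2. The shares of all tested genes called lower at these steps were 10.7%, 26.9%, 18.7% and 27.9%. With library medians set equal, an alternative scaling, the last of these shares was 20.9%, because 62.0% rather than 46.9% of the genes called at MAT against LEL were then higher. The members kept their direction and their call at that step under this scaling. Between MAT and TCQ, a comparison added after the data had been examined, STM and KNAT1 were called higher and CUC2 lower, with 39.0% of tested genes called higher and 39.9% lower.

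**Figure D3:**
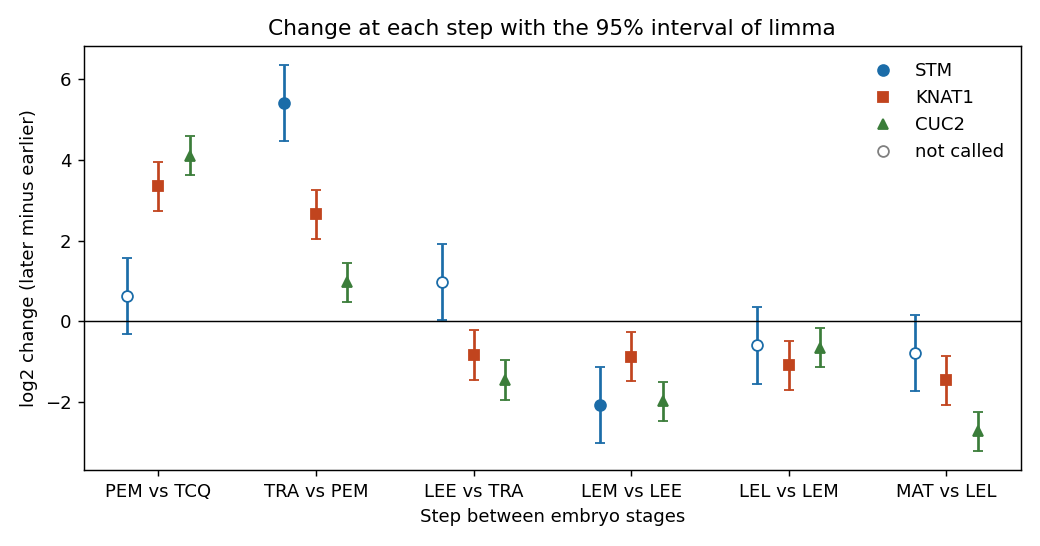
Log2 change of STM, KNAT1 and CUC2 (y axis, later minus earlier stage) at each of the 6 steps between embryo stages (x axis), with the 95% interval from limma; open symbols were not called at an adjusted p of 0.05. The largest rise of CUC2 and KNAT1 is at PEM against TCQ and that of STM at TRA against PEM, and STM alone has a positive value at LEE against TRA.

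The relation between 2 members within a library does not depend on how that library was scaled where both lie well above their floors. It was tested as the difference of their log2 CPM over the 14 embryo libraries, with an exact permutation test over all ways of dividing the libraries into 7 pairs (two-sided, adjusted over the 3 pairs of members). As the values are not per length of transcript, the sign of a difference does not say which gene was the more abundant, and only its change from stage to stage is described. All 3 differences varied over the stages by more than they did between the libraries of a stage. The test was run on no other pairs of genes. As 93.3% of all tested genes changed over the embryo stages, passing it does not set the members apart.

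STM minus CUC2 averaged −2.73 at TCQ and −6.21 at PEM. It was −1.77 at TRA, then level from LEE (0.65) through LEM (0.56) to LEL (0.62), and 2.57 at MAT (log2, exact p = 9.6e-05, adjusted p = 1.4e-04). At TCQ and PEM STM was at or near its floor, so the lower value at PEM follows the rise of CUC2 and not a measured fall of STM. STM then gained on CUC2 at TRA and LEE, and gained again at MAT. From LEE to LEL the 2 genes fell in near proportion. The stage means of this difference moved there by at most 0.09, and the LEL and LEM libraries overlapped.

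STM minus KNAT1, the difference of the KNOX genes, averaged −2.57 in TCQ embryos, −5.29 at PEM and −2.53 at TRA. It reached −0.73 at LEE, was −1.92 in LEM and −1.43 in LEL embryos, and ended at −0.75 in mature embryos (log2, exact p = 2.0e-04, adjusted p = 2.0e-04). With STM at or near its floor at TCQ and PEM, the lower value at PEM follows the rise of KNAT1. The fall from LEE to LEM was therefore steeper for STM than for KNAT1, and the libraries of these stages did not overlap in the difference. KNAT1 minus CUC2 averaged −0.16, −0.92, 0.76, 1.38, 2.49, 2.05 and 3.32 over the same stages (log2, exact p = 7.4e-06, the smallest this test can give, adjusted p = 2.2e-05). After PEM this difference was higher at each later stage except LEL, with no overlap between libraries of neighbouring stages. CUC2 had the larger fall of the pair at each step after TRA except LEL against LEM, where KNAT1 had the larger one (−1.09 against −0.66 for CUC2).

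**Figure D4:**
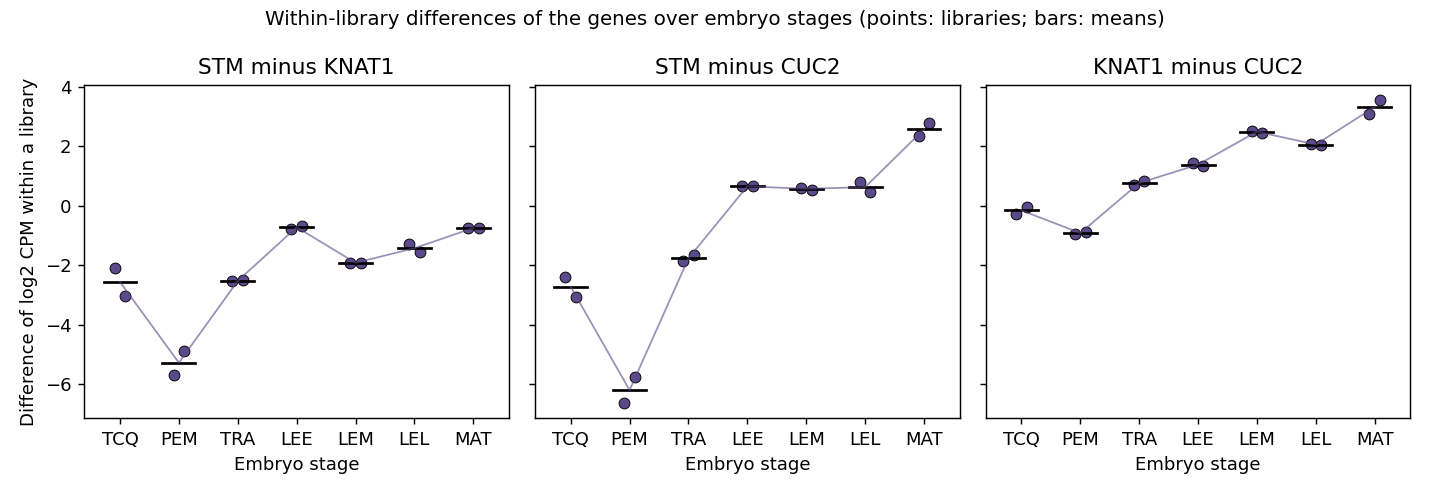
Differences of log2 CPM between 2 members in the same library (y axis) at the 7 embryo stages (x axis), with a point per library and a bar at the mean of the 2 libraries. STM minus CUC2 has its lowest mean of −6.21 at PEM and its highest of 2.57 at MAT, and KNAT1 minus CUC2 runs between −0.92 at PEM and 3.32 at MAT. STM is at or near its floor at TCQ and PEM.

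In early endosperm the members were at or not far above the lowest value of their own row. STM was at its floor of −2.36 log2 CPM in both EEN libraries, against 3.82 and 4.06 in the TRA embryos of the same time, so no fold is given. KNAT1 had −1.61 and −1.10 log2 CPM in EEN, against 6.37 and 6.57 in TRA, which is 226-fold lower in EEN (log2 difference −7.82 ± 0.29, SE). These EEN values are not far above the KNAT1 floor of −2.20, which makes up part of them. On log2(CPM + 1) the KNAT1 difference was −6.01. CUC2 had −1.65 and, at its floor, −2.25 in EEN, against 5.69 and 5.73 in TRA, 202-fold lower by the fitted difference of −7.66 ± 0.23. This fold rests in part on the floor. All 3 members were called lower in EEN than in TRA, with adjusted p of 4.3e-09 for STM, 2.5e-12 for KNAT1 and 2.9e-13 for CUC2, where 36.6% of tested genes were called lower.

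In late endosperm CUC2 was at its floor in both libraries (−2.25 log2 CPM), against 1.66 and 1.55 in the LEL embryos. STM had −0.65 and −0.84 in LEN, against 2.45 and 2.01 in LEL, 7.85-fold lower (log2 difference −2.97 ± 0.44, SE). KNAT1 had −1.55 and −0.39 in LEN, against 3.74 and 3.59 in LEL, 24.8-fold lower (−4.63 ± 0.29). The LEN levels behind both folds are low and include the floor. On log2(CPM + 1) the differences were −1.83 for STM and −3.15 for KNAT1. The 3 members were called lower in LEN than in LEL with adjusted p of at most 1.9e-05, as were 37.2% of tested genes.

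In the seed coat both KNOX genes and CUC2 were again low. KNAT1 stood at its floor of −2.20 and CUC2 at its floor of −2.25 log2 CPM in both SEC libraries. STM differed between the 2 SEC libraries by 1.87, with −0.50 in replicate 1 and the floor of −2.36 in replicate 2, against 2.45 and 2.01 in LEL. The 3 members were called lower in SEC than in LEL with adjusted p of at most 1.8e-06, where 39.3% of tested genes were called lower. The difference for STM was −3.66 ± 0.44 (log2, SE), 12.6-fold lower in SEC, and 1 of the SEC libraries behind it is at the floor. Without SEC replicate 1 the difference was −4.59 and without SEC replicate 2 it was −2.72, both called.

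**Figure D5:**
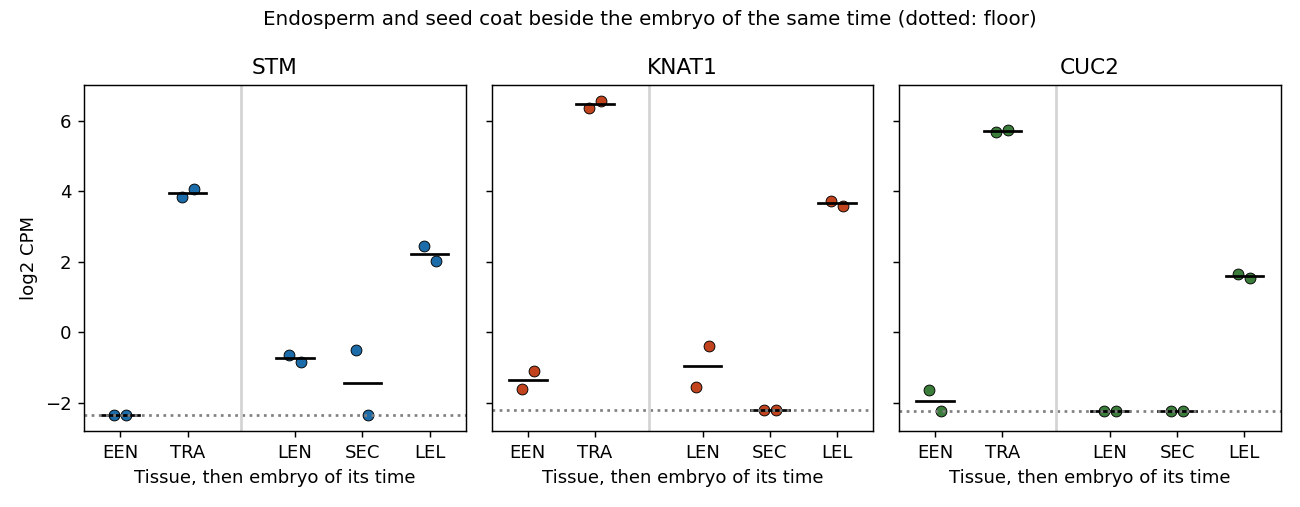
Log2 CPM (y axis) of STM, KNAT1 and CUC2 in early endosperm (EEN) beside TRA embryos, and in late endosperm (LEN) and seed coat (SEC) beside LEL embryos, with a point per library, a bar at the mean of the 2 libraries and a dotted line at the floor. All tissue libraries lie below the embryo libraries of the same time, and 10 of the tissue values are at the floor.

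Between the endosperm ages, STM alone was called, being higher in LEN (−0.65 and −0.84 log2 CPM) than in EEN, where both libraries were at the floor (adjusted p = 0.0050). Of all tested genes 31.3% were called higher in LEN. The call was lost in a fit of the libraries of EEN, LEN, SEC and the embryos of their times alone (adjusted p = 0.083). KNAT1 differed by 0.38 (95% interval −0.23 to 0.99) and its EEN and LEN libraries overlapped, and CUC2 by −0.30 (95% interval −0.78 to 0.19). Over the same interval the embryo levels changed by −1.71 for STM, −2.81 for KNAT1 and −4.11 for CUC2 (log2, LEL minus TRA). The change in endosperm minus the change in embryo was called higher for all 3 members and for 31.3% of tested genes, in a comparison added after the data had been examined. STM in EEN and CUC2 in LEN were at the floor, and the part of the floor in this difference was not tested.

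RNA carried over from one tissue into another during dissection was bounded from genes that are strong in the source. By this rule EEN RNA could make up at most 0.484%, LEN RNA 0.153% and SEC RNA 0.464% of any embryo library, which would give no member more than 0.00210 CPM. The highest mean of a member in these tissues was 0.598 CPM (STM in LEN). The product was therefore bound to be small whatever the share. In the other direction, the same rule gave 0.302% as the highest share of TRA RNA in an EEN library and 0.554% for LEL RNA in an LEN library, but the share for LEN was 4.11% by a ratio of stronger genes and is no firm bound. The level of KNAT1 in EEN was 0.369% and 0.526% of its TRA mean, and that of CUC2 was 0.609% and 0.402%, all with the floor of about 0.2 CPM included. STM in LEN was at 13.4% and 11.8% of its LEL mean, above both values, and KNAT1 in LEN at 2.69% and 6.02%, of which the first is below the higher value. These levels also include the floor, which for STM is 4.10% of its LEL mean. For LEL RNA in an SEC library the highest share was 0.166%. STM in SEC was at 15.0% of its LEL mean in replicate 1 and, at its floor, 4.10% in replicate 2. KNAT1 and CUC2 were at their floors in SEC. The part of carried embryo RNA in the endosperm and seed coat levels of STM, KNAT1 and CUC2 was not tested further.

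Set in order over all 10 groups, STM was highest at LEE, followed by TRA, LEM, LEL, MAT, LEN, SEC, PEM, TCQ and EEN. The intervals for the neighbours LEM and LEL, and also LEL and MAT, held 0 although the libraries did not overlap. From LEN down, the libraries of each pair of neighbours overlapped and the intervals held 0, although LEN and EEN at the ends of this stretch differed (above), and LEN lay below MAT with no overlap. For KNAT1 the order was TRA, LEE, LEM, PEM, LEL, MAT, TCQ, LEN, EEN and SEC. PEM and LEL differed by 0.16 with an interval that held 0, and LEN and EEN overlapped. For CUC2 the order was TRA, PEM, LEE, LEM, LEL, TCQ, MAT and EEN, followed by LEN and SEC at the same floor, and EEN overlapped with these.

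The study labels 3 further genes as shoot meristem genes, and WUS and ZPR3 peaked at earlier stages than the members. WUS (Bradi5g25113.1), a homeobox gene that in Arabidopsis maintains the stem cells, was highest at TCQ with 2.48 and 2.56 log2 CPM. It fell at each of the first 2 steps, and both of its libraries were at the floor at LEL and MAT and in all tissue groups. ZPR3 (Bradi4g42250.1), a small leucine zipper protein that in Arabidopsis inhibits class III HD-ZIP factors, was highest at PEM with 4.72 and 4.66 log2 CPM. FIL (Bradi3g30410.1), a YABBY factor of the lower side of lateral organs in Arabidopsis, had 7.81 and 7.66 log2 CPM at TRA and 7.49 and 7.89 at LEE, the stages at which the members were highest, and these libraries overlapped.

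Of the 6 shoot meristem genes, the 3 members included, 4 were called higher and 1 lower at PEM against TCQ (KNAT1, CUC2, ZPR3 and FIL higher, WUS lower), beside 28.7% and 24.6% of all tested genes. At TRA against PEM 4 were called higher and 2 lower, WUS and ZPR3 being lower, beside 13.4% and 15.9% of all tested genes. None was called higher at a later step, and 3, 5, 3 and 3 were called lower at the steps ending at LEE, LEM, LEL and MAT, where 10.7%, 26.9%, 18.7% and 27.9% of all tested genes were. All 6 were called lower in EEN than in TRA, beside 36.6% of tested genes. In LEN 5 and in SEC 4 were called lower than in LEL, beside 37.2% and 39.3% of tested genes, WUS being at its floor on both sides. The study placed these genes on the list for their known roles in Arabidopsis, and the members are among them, so these counts do not stand apart from those of the members.

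Across the 10 group means, KNAT1 and CUC2 had a Pearson r of 0.91, STM and KNAT1 of 0.83 and STM and CUC2 of 0.61. Over the 7 embryo stage means alone the values were 0.79, 0.80 and 0.34. FIL, which is not a member, had a higher r over the 10 groups than any pair of members, 0.94 with KNAT1 and 0.94 with CUC2. Its r with STM was 0.75, and WUS and ZPR3 had at most 0.67 with a member. The points share the same libraries and the low tissue groups, so these are descriptions only. The gene whose profile over the 10 groups was most like STM was Bradi1g38730.2 (r = 0.97), followed by Bradi5g11247.1 (r = 0.97). Bradi1g38730.2 averaged −1.61 log2 CPM at PEM, 4.40 at TRA and 4.88 at LEE, which is the same late onset. For KNAT1 the most alike were Bradi2g56938.1 (r = 0.98) and Bradi3g50050.1 (r = 0.97), and for CUC2 Bradi2g12240.2 and Bradi2g32792.1 (r = 0.99 each). A profile with r above 0.95 was shared by 3 tested genes for STM, by 27 for KNAT1 and by 50 for CUC2. Taken over the 7 embryo stages alone, none of the 6 named genes stayed among the 2 most alike, while their r with the member was still between 0.94 and 0.98.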

How the data were processed

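RNA-seq was done on 20 libraries from pooled embryos, endosperm or seed coat. Per the paper's methods, RNA was amplified before library preparation, and the authors filtered reads, quantified them with Salmon on representative gene models and used edgeR. The submitters' processing notes also name CASAVA and Trimmomatic. The deposited values were log2 CPM per gene model. No source used here states the normalization factors or the small count added before the logarithm, and read depth is unknown. Antilogged columns summed to between 739963 and 1084752, and library medians lay between 2.52 and 2.98 log2 CPM. The lowest value of a gene was called its floor where at least 2 libraries shared it within 1e-06.

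The members, gene lists and tests were chosen with earlier results of these data known. The study's count-based test was replaced by limma 3.58.1 in R 4.3.3, which fits log values: 1 fit with a mean for each of 10 groups, moderated variance with a trend, 10 residual degrees of freedom, and Benjamini-Hochberg adjustment over 22902 genes that exceeded 0 log2 CPM in 2 or more libraries (847 left out). Calls were made at an adjusted p of 0.05. The fitting code was tested on simulated data. Named genes were the 3 members, the 3 other shoot meristem genes of the study and the 2 genes with the highest Pearson r with each member over the group means. Gene families and markers by description were planned but are not reported, since 0 of 31335 reference genes matched an identifier, and no sequence was read. Carried RNA was bounded by the 50th lowest ratio of target to source CPM among genes of at least 64 CPM in the source. The contrasts MAT against TCQ and endosperm against embryo change, and the bound on embryo RNA in tissue libraries, were added after the data were examined. Alternatives were other filters, log2(CPM + 1), equal library medians, no variance trend, a fit of part of the libraries, a replicate block and leaving out each library.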

Additional observations from a re-analysis of the deposited data

Results flagged for a closer look

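The change between the 2 sampling times differed between endosperm and embryo for all 3 members. This comparison was added after the data had been examined. It was called in the same direction for all 6 shoot meristem genes of the study and for 31.3% of tested genes. WUS and ZPR3 were at the floor in all EEN and LEN libraries. Their values (2.88 and 3.95) are therefore the embryo fall alone with its sign turned, and their direction says nothing about endosperm. The difference LEN minus EEN less the difference LEL minus TRA was 3.33 for STM (1.62 in endosperm and −1.71 in embryo, adjusted p = 2.9e-04), 3.19 for KNAT1 (0.38 in endosperm and −2.81 in embryo, adjusted p = 6.8e-06) and 3.81 for CUC2 (−0.30 in endosperm and −4.11 in embryo, adjusted p = 1.1e-07), all on the log2 scale in the limma fit. STM in EEN and CUC2 in LEN were at the floor in both libraries, and CUC2 was also at it in EEN replicate 2. A fall in endosperm below the floor cannot be seen, and the part of the floor in these differences was not tested.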

How the results depend on the processing

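Of 603 values of 54 results under alternative processing, 574 were classed as the same, 7 gained a call, 13 lost one, 8 moved and 1 reversed. For step and tissue changes, the same meant that direction and side of the threshold were kept. F-tests and permutation tests have no direction and counted by the threshold alone. The most alike genes and the bounds on carried RNA have no threshold, and only these could be classed as moved. With log2(CPM + 1), the STM changes of 0.92 (LEE against TRA), −0.51 (LEL against LEM) and −0.62 (MAT against LEL) were called, and 17 of 30 called changes moved by over 1.5 times. In fits of part of the libraries STM was called at LEE against TRA (0.97) and MAT against LEL (−0.79), and not at LEN against EEN (1.62). Without the variance trend the KNAT1 change of −0.84 at LEE against TRA was not called (adjusted p = 0.058). Leaving out each library in turn gave −0.94 to −0.74 for KNAT1 at LEE against TRA, −1.01 to −0.75 at LEM against LEE and −1.22 to −0.96 at LEL against LEM, and −0.75 to −0.56 for CUC2 at LEL against LEM. At LEN against EEN it gave −0.20 to 0.96 for KNAT1 (called without LEN replicate 1, reversed and not called without LEN replicate 2) and −0.60 to 0 for CUC2 (called without EEN replicate 2). With the 10th lowest ratio among genes of at least 9 log2 CPM, the bounds were 0.232% for EEN, 0.0469% for LEN and 0.309% for SEC RNA in embryos, 0.161% for TRA RNA in EEN and 4.11% for LEL RNA in LEN, which is above one of the KNAT1 levels in LEN (2.69% and 6.02% of its LEL mean). The causes were not tested.

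Setting library medians equal moved the median change of all genes by 0.25 at MAT against LEL, 0.16 at EEN against TRA, 0.17 at LEN against LEL, −0.10 at SEC against LEL and −0.13 at LEN against EEN, and turned no member's direction. Replicate numbers were shared by the groups, and the labels do not say whether they pair the libraries. Deviations of same-numbered libraries correlated between −0.13 and 0.55 over 45 pairs of groups, with 15 above 0.1 and 4 below −0.1. The source of the shared deviations was not tested. A replicate block changed no call, the F over the embryo stages of STM being 71.3 with it and 70.1 without it. The depth of the libraries is unknown, so low levels cannot be given counting intervals.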
